A study of Mus musculus with 9 samples.

Results

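Immediate early genes are transcribed within minutes of neuronal activity, without new protein synthesis, and their transcripts are short-lived. Calcium and cAMP signals reach them through CREB at cAMP response elements and through SRF at CArG boxes, and most of their products are transcription factors that switch on slower effector genes. In the hippocampus their levels are widely used as a record of recent experience, and Fos and Arc mark the neurons that took part in it. The 10 members described here were taken as a fixed list, namely Fos, Fosb, Junb, Egr1, Egr2, Egr3, Egr4, Arc, Npas4 and Nr4a1, and all 10 were found among the 48709 genes of the count files and were among the 17361 genes that passed the filter on low counts.

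RNA was sequenced from hippocampal nuclei that had been sorted for NeuN, a protein of neuronal nuclei, so that the counts measure nuclear RNA. A total of 3 groups of 3 mice each were compared: C57BL/6J wildtype (WT) mice, Tg4-42 mice, and Tg4-42 mice given caffeine at 300 mg/l in the drinking water for 4 months from 2 months of age, while the study's methods give tap water for untreated mice. Tg4-42 mice express human Aβ4-42, a truncated amyloid peptide, under the neuronal Thy1 promoter, homozygously and on the same strain, and this transgene is shared by the treated and untreated Tg4-42 groups. Mice were 6 months old and were killed on the day after behavioural testing, and no caffeine-treated WT group was analysed here. In every group mice 1 and 2 were sequenced in lane 6 and mouse 3 in lane 7, and the numbers are only names and pair no mice. The labels speak of 6 hippocampal samples per group for the isolation of nuclei, and whether a library holds 1 hippocampus or more is not given in the sources used here.

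The libraries held 9342945 to 16376922 counts assigned to genes, and 3 counts corresponded to 0.190 to 0.325 CPM (counts scaled to a common library size with TMM factors), so every member was above this level in every mouse. Summed over 7 genes of neurons the level was 6351 to 8792 CPM, whereas 5 astrocyte markers summed to 64.8 to 111 CPM and 5 microglial markers to 17.4 to 31.6 CPM. The 5 endothelial markers summed to at most 2.18 CPM and none passed the filter. Oligodendrocyte markers were higher than those of other glia, at 227 to 461 CPM over 5 genes.

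The upstream sequences of the members are shown first, since sites that carry activity to such genes can lie there. RefSeq's promoter table for GRCm38.p6 gave the 250 bases before the start for 7 members, and none is shown for Egr1, Egr3 and Arc. A set of 3 motifs was marked in capitals on either strand, each as letters only. The first was TGACG, or CGTCA on the other strand, which is the short core of the cAMP response element bound by CREB. The second was the CArG box, which is bound by SRF, and the third was GCGGGGGCG, or CGCCCCCGC, which is bound by EGR proteins. Each stretch reads 5′ to 3′ on the strand of its gene and runs from before the first match to after the last one.
Fos, chr12:85473746-85473843, plus strand: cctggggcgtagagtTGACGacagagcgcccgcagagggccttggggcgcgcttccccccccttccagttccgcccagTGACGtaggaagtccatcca
Fosb, chr7:19310072-19310120, minus strand: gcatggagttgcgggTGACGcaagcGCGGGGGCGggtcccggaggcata
Junb, chr8:84978835-84978869, minus strand: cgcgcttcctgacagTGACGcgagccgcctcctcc
Egr2, chr10:67537743-67537833, plus strand: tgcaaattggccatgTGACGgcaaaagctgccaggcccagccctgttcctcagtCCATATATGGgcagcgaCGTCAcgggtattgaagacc
Egr4, chr6:85513679-85513781, minus strand: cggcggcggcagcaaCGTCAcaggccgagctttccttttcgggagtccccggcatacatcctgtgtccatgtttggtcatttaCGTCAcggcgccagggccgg
Npas4, chr19:4990128-4990157, minus strand: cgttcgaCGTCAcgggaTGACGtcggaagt
Nr4a1, chr15:101266598-101266825, plus strand: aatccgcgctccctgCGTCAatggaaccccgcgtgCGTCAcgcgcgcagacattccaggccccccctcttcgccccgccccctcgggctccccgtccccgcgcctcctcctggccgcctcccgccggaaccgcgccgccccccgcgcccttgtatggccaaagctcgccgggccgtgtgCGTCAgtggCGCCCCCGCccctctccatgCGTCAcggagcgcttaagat

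The short core TGACG stood in the 250 bases of all 7 members, against 17.8% of the 32851 windows of the table. Fos had it 129 and 66 bases before its start, Egr2 at 111 and 55 bases, and Nr4a1 held it 4 times. The complete palindrome TGACGTCA, which contains the core on both strands, was in none of the 7 and in 1.55% of all windows. A CArG box was found in Egr2 alone among the 7 members, 72 bases before the start and between its cores, and in 1.47% of all windows. The EGR site was found in Fosb and Nr4a1 and in 2.57% of all windows. The Npas4 window lies within the first exon of the GENCODE M21 model, which starts 345 bases farther upstream, and the Egr2 window is the one of 5 whose start equals that of the principal GENCODE transcript. These are matches of letters, and binding was not measured. Sites farther than 250 bases before the start were not searched, so a motif absent here may lie elsewhere near the gene.

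Arc had the highest level of the members. Arc encodes a capsid-like protein that regulates AMPA receptor endocytosis at the synapse, and it is the only member here whose product is not a transcription factor. Per kilobase of exon its median over the 9 mice was 82.4 CPM per kb, followed by Junb with 42.0, Nr4a1 with 25.6, Egr1 with 22.1, Fos with 15.97, Npas4 with 6.28, Egr4 with 4.38, Egr2 with 2.26, Egr3 with 1.37 and Fosb with 0.295 CPM per kb. Arc was above Junb in 9 of 9 mice, Junb above Nr4a1 in 8, Egr1 above Fos in 8, Fos above Npas4 in 9 and Egr3 above Fosb in 9. Nr4a1 was above Egr1 in 5 mice only, Npas4 above Egr4 in 7, and Egr4 above Egr2 and Egr2 above Egr3 in 6 each, so that the order of these neighbours changed from mouse to mouse.

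The Fos and Jun families supply the subunits of the AP-1 transcription factor. Fos, whose product dimerises with Jun proteins, was at 25.7, 72.4 and 48.8 CPM in the WT mice, at 37.6, 36.3 and 54.6 CPM in Tg4-42 mice, and at 72.3, 22.4 and 6.07 CPM in caffeine-treated Tg4-42 mice. The caffeine group thus held one mouse at the level of the highest WT mouse and the lowest mouse of all, and the 3 groups overlapped. Fosb, a relative of Fos whose ΔFosB splice form accumulates with repeated activity, was low throughout, at 0.941, 2.53 and 5.04 CPM in WT, 1.84, 0.642 and 2.09 CPM in Tg4-42 and 3.09, 0.830 and 0.769 CPM after caffeine. Its lowest libraries rest on 10 counts. Junb, which pairs with Fos proteins, stood at 97.1, 143 and 96.5 CPM in WT, 62.9, 77.97 and 96.5 CPM in Tg4-42 and 126, 81.1 and 77.3 CPM after caffeine. Its Tg4-42 mice were level with or below the lowest WT mouse, while the caffeine-treated mice overlapped both groups. The exons of Junb and of Prdx2 on the other strand overlap in GENCODE M21, and the library kit does not mark strand.

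The EGR family binds GC-rich sites and is induced by growth factors and synaptic activity, and Egr1 (Zif268) is needed for late long-term potentiation. Egr1 measured 92.3, 129.9 and 174 CPM in WT, 81.8, 99.0 and 144 CPM in Tg4-42 and 163, 64.5 and 63.4 CPM after caffeine. Egr2 (Krox20) varied most of all members, with 1.80, 18.9 and 21.8 CPM in WT, 7.68, 7.25 and 18.7 CPM in Tg4-42 and 23.2, 3.04 and 0.769 CPM after caffeine. The highest and the lowest of the 9 mice for Egr2 were both caffeine-treated, at 316 and 10 counts. Egr3, a further zinc finger factor of the family, varied least, between 4.11 CPM in a Tg4-42 mouse and 7.08 CPM in a WT mouse, and its groups overlapped fully. Egr4 was at 4.39, 13.5 and 16.2 CPM in WT, at 3.90, 7.06 and 10.2 CPM in Tg4-42 and at 14.3, 9.40 and 7.61 CPM after caffeine, and it was one of 4 members, with Fosb, Junb and Egr3, whose mean was not lower after caffeine than in untreated Tg4-42 mice.

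Arc was at 197, 365 and 340.2 CPM in WT, 189, 252 and 299 CPM in Tg4-42 and 344, 109 and 105 CPM in caffeine-treated mice. Caffeine-treated mice 2 and 3 therefore lay below every other mouse, and mouse 1 was above all Tg4-42 mice. Npas4, a neuron-specific factor that responds to calcium entry and controls inhibitory synapses, was likewise lowest in caffeine-treated mice 2 and 3. Its levels were 20.9, 42.0 and 34.8 CPM in WT, 20.9, 26.0 and 30.8 CPM in Tg4-42 and 33.9, 13.5 and 9.76 CPM after caffeine. Nr4a1 (Nur77), an orphan nuclear receptor, was at 39.1, 126 and 136 CPM in WT, 89.8, 64.0 and 161 CPM in Tg4-42 and 166, 48.0 and 24.4 CPM after caffeine. As with Egr2, the highest and the lowest Nr4a1 levels were both found among caffeine-treated mice.

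**Figure D1:**
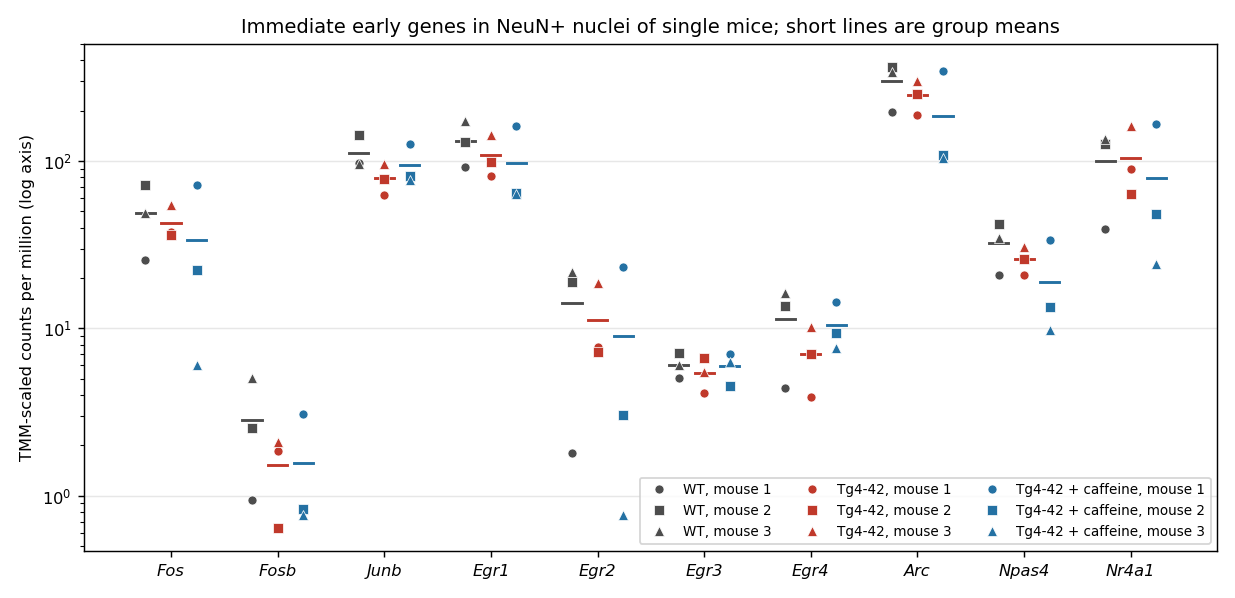
TMM-scaled CPM on a log axis for the 10 members in each of the 9 mice, with symbols for mice 1 to 3, colours for groups and short lines for group means. The caffeine-treated mice were spread over the whole range of Egr2, from 0.769 to 23.2 CPM, whereas Egr3 stayed between 4.11 and 7.08 CPM.

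The first comparison asked whether these genes differed between Tg4-42 and WT mice at 6 months. No member was called at an adjusted p under 0.05 by edgeR's quasi-likelihood test with Benjamini-Hochberg adjustment, where 0.0979% of all tested genes were. At an unadjusted p under 0.05 there was 1 member, Junb, against 2.74% of all genes. Junb was at 112 ± 26.8 CPM (SD, n = 3) in WT and 79.1 ± 16.8 CPM (SD, n = 3) in Tg4-42 mice, with a log2 fold change of -0.50 (SE 0.22), an unadjusted p of 0.0359 and an adjusted p of 1.0 from edgeR. The two-sided exact permutation test on log2 values gave p = 0.2 for Junb, and the smallest that 3 against 3 mice allow is 0.1. The unadjusted p of Junb from edgeR was 0.198 without WT mouse 2 (-0.29), 0.139 without Tg4-42 mouse 1 (-0.37) and 0.0798 without Tg4-42 mouse 2 (-0.49). It was 0.0372 without WT mouse 1 (-0.60), 0.0227 without WT mouse 3 (-0.61) and 0.0113 without Tg4-42 mouse 3 (-0.68). Within lane 6 alone it was 0.00529 (-0.78). Junb was called in none of these fits. A total of 9 members had lower and 1, Nr4a1, had a higher fitted level in Tg4-42 mice, with a median log2 fold change of -0.31 against 0.0018 over all tested genes. The groups overlapped for all 10 members, while they did not overlap for 6.73% of all genes. The remaining values ran from -0.95 (SE 0.66) for Fosb to 0.06 (SE 0.83) for Nr4a1. The value of Fosb was -0.25 without WT mouse 3, -0.54 without Tg4-42 mouse 2, and -1.03 to -1.35 without each other mouse of these groups. Without WT mouse 1 Fosb (-1.35) and Egr4 (-1.06) had unadjusted p of 0.0468 and 0.00718 from edgeR. No member was called in that fit, where 15 of 17735 genes were. Its share of all genes at an unadjusted p under 0.05 was not counted.

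The second comparison asked what 4 months of caffeine did to these genes in Tg4-42 mice. None of the 10 members passed the edgeR test, against 0.881% of all genes, and none had an unadjusted p under 0.05, against 17.0% of all genes. Groups overlapped for every member, whereas 23.0% of all genes had groups that did not overlap. In this comparison 6 members had lower and 4 had higher fitted levels after caffeine, with a median log2 fold change of -0.24 against -0.01 over all genes. Npas4 was at 25.9 ± 4.94 CPM in untreated and 19.0 ± 13.0 CPM in treated mice (SD, n = 3 each), a log2 fold change of -0.45 (95% interval -1.45 to 0.56). Arc was at 247 ± 55.0 CPM in untreated and 186 ± 137 CPM in treated mice (SD, n = 3 each), which gave -0.41 (95% interval -1.63 to 0.80). Egr4 had the highest value, with 7.05 ± 3.15 CPM in untreated and 10.4 ± 3.48 CPM in treated mice (SD, n = 3 each) and a log2 fold change of 0.55 (95% interval -0.47 to 1.57). For Egr2 the interval ran from -3.41 to 2.78, that is from 0.0939-fold to 6.86-fold, so even large changes in either direction were not resolved with these mice.

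Caffeine-treated Tg4-42 mice were also set against WT mice, a comparison in which both genotype and treatment differ. Again no member was called, where 0.415% of genes were, and none had an unadjusted p under 0.05, where 15.4% of genes had one. All 10 members had a lower fitted level over both lanes, 5 of them not within lane 6 alone, with a median log2 fold change of -0.50 against -0.01 over all genes, and their groups overlapped in each case, against 18.8% of genes without overlap. The lowest p was that of Npas4, with 32.6 ± 10.7 CPM in WT and 19.0 ± 13.0 CPM after caffeine (SD, n = 3 each), a log2 fold change of -0.78 (SE 0.44) and an adjusted p of 0.438 from edgeR. Arc had a log2 fold change of -0.70 (SE 0.51) and Fosb of -0.87 (SE 0.64). DESeq2, which gave an adjusted p for 9 of the members here, and limma-voom called no member in any of the 3 comparisons either. At an unadjusted p under 0.05 limma-voom had 3 members against untreated Tg4-42 and 4 against WT mice. It called 618 and 106 of 17361 genes there, and its share of all genes at that unadjusted p was not counted. The 3 comparisons share groups of mice, so their values are not independent of each other. The standard errors of the members reached 1.28, where the median over all genes was 0.19.

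**Figure D2:**
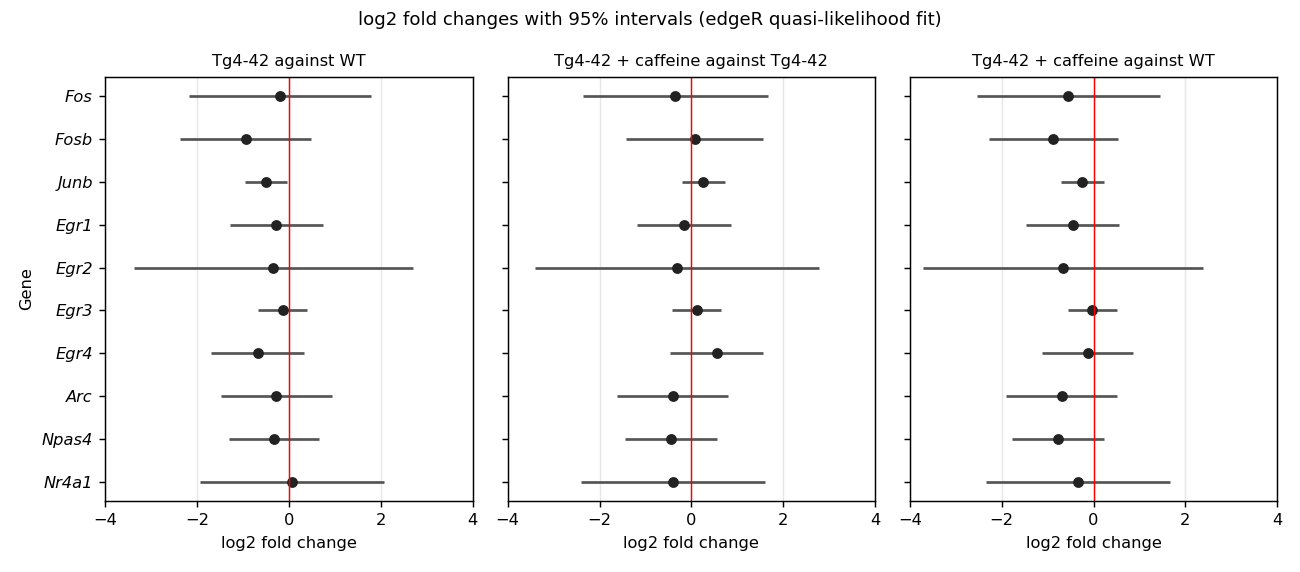
Fitted log2 fold changes of the 10 members in the 3 comparisons, one panel each, with points for the estimates and lines for 95% intervals from the edgeR fit over all 9 libraries. The interval excludes 0 for Junb in Tg4-42 against WT, where the adjusted p was 1.0, and for no other member, and Egr2 has the widest interval in each panel.

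The values after caffeine depended on single mice, and calls among the members appeared when mouse 1 of the treated group was left out. Without caffeine-treated mouse 1 the log2 fold change of Arc against untreated Tg4-42 mice was -1.21 with an adjusted p of 0.0340 from edgeR. Arc was the 1 member called there, and Npas4 had -1.16 with an adjusted p of 0.0514. More genes of all kinds were called in that fit, 341 of 17696, against 153 of 17361 with all mice. Against WT mice Arc (-1.50, adjusted p 0.0162) and Npas4 (-1.49, adjusted p 0.0239) were called without that mouse, and Egr1 had -1.05 with an adjusted p of 0.0719. With all mice 72 genes were called in that comparison, and the range with 1 mouse left out is given below. Mouse 1 was the highest of its group for all 10 members, so leaving it out lowered the treated group for each. Egr2 moved from -0.32 to -2.53 against untreated Tg4-42 mice and was not called. Leaving out caffeine-treated mouse 2 or 3 gave no call for any member and moved the values against untreated Tg4-42 mice upwards, except that of Egr3 without mouse 3. These moves turned the direction of Egr1 (0.062) and Egr2 (0.10) without mouse 2, and of Fos (0.14), Egr1 (0.067), Egr2 (0.22) and Nr4a1 (0.028) without mouse 3. Leaving out untreated Tg4-42 mouse 3 also turned Egr1 (0.11), Egr2 (0.29) and Nr4a1 (0.065). Mouse 1 was not marked by its depth, with 13622886 counts. It had Dcn, one of the 7 CA1 markers, at 8.31 CPM, where the other mice had between 38.1 and 232 CPM, and the part of this in the result was not tested.

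**Figure D3:**
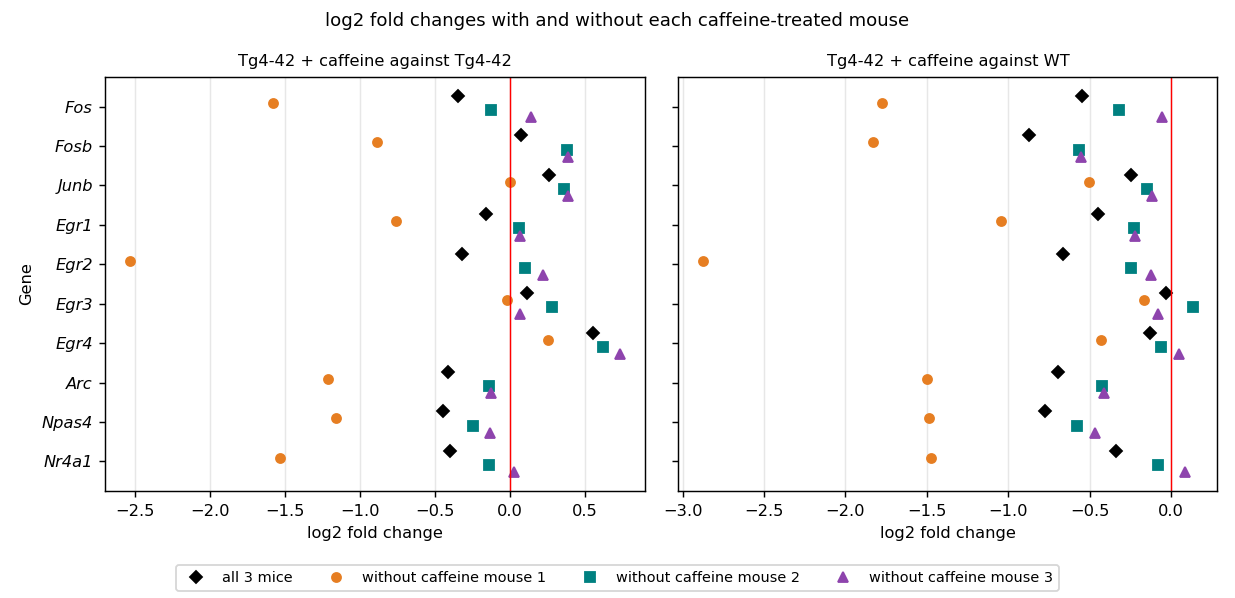
Fitted log2 fold changes of each member for caffeine-treated against untreated Tg4-42 mice and against WT mice, with all 3 caffeine-treated mice and without each in turn. Without mouse 1 Arc lies at -1.21 and -1.50 and Egr2 at -2.53 and -2.88, well to the left of the other estimates.

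The sequencing lane was the same for all mice numbered 3. Within lane 6, with 2 mice per group, the log2 fold change of Arc after caffeine was 0.05, that of Npas4 0.02, that of Fos 0.37 and that of Egr2 0.83 against untreated Tg4-42 mice, so each had the opposite sign to the value over both lanes. Egr1 (0.34) and Nr4a1 (0.49) also turned, and all 10 members were then higher after caffeine. In that lane the values of Junb (0.57) and Egr4 (1.10) had unadjusted p of 0.0294 and 0.0436 from edgeR. Neither was called, and 0 of 17518 genes were. The share of all genes at an unadjusted p under 0.05 was not counted for that fit. Against WT mice, lane 6 alone turned 5 of the 10 directions, namely those of Fosb (0.15), Egr1 (0.036), Egr2 (0.33), Egr4 (0.40) and Nr4a1 (0.38). Lane 7 held 1 mouse of each group and gave no test. In lane 7 the caffeine-treated mouse was the lowest of its group for 9 members, whereas the Tg4-42 mouse was the highest of its group for 9.

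Most members spread widely between mice of one group. The SD of log2 CPM around group means was 1.82 for Egr2, 1.13 for Fos, 1.07 for Nr4a1, 1.00 for Fosb, 0.75 for Egr4, 0.66 for Arc, 0.63 for Npas4 and 0.57 for Egr1, where the median over all 17361 tested genes was 0.23. These 8 members lay above the 90th percentile of all genes, and 6 genes had a larger SD than Egr2. Junb, with an SD of 0.34, and Egr3, with 0.31, lay at the 71.7 and the 66.0 percentile. Highest and lowest mouse differed 30.2-fold for Egr2, 11.9-fold for Fos, 7.86-fold for Fosb, 6.81-fold for Nr4a1, 4.30-fold for Npas4, 4.17-fold for Egr4, 3.48-fold for Arc, 2.74-fold for Egr1, 2.28-fold for Junb and 1.72-fold for Egr3.

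The same 8 members lay above the 95th percentile of the biological coefficient of variation that edgeR fitted, a measure that allows for counting error. It was 1.04 for Egr2, 0.684 for Fos and 0.673 for Nr4a1, which was 5.50, 5.05 and 5.27 times the value fitted for genes of their level, whereas Egr3 was at 0.927 times that value. Mice of lane 6 alone also put 8 members above the 90th percentile of SD. Each group showed such spread, with 5 members above the 90th percentile within WT, 4 within Tg4-42 and 7 within the caffeine group. The median ratio of highest to lowest mouse over the members was 2.41-fold in WT, 1.69-fold in Tg4-42 and 3.38-fold in caffeine-treated mice, and this difference in spread was not tested with 3 mice per group. Over all tested genes the median SD was 0.23 in WT, 0.20 in Tg4-42 and 0.19 in the caffeine group.

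**Figure D4:**
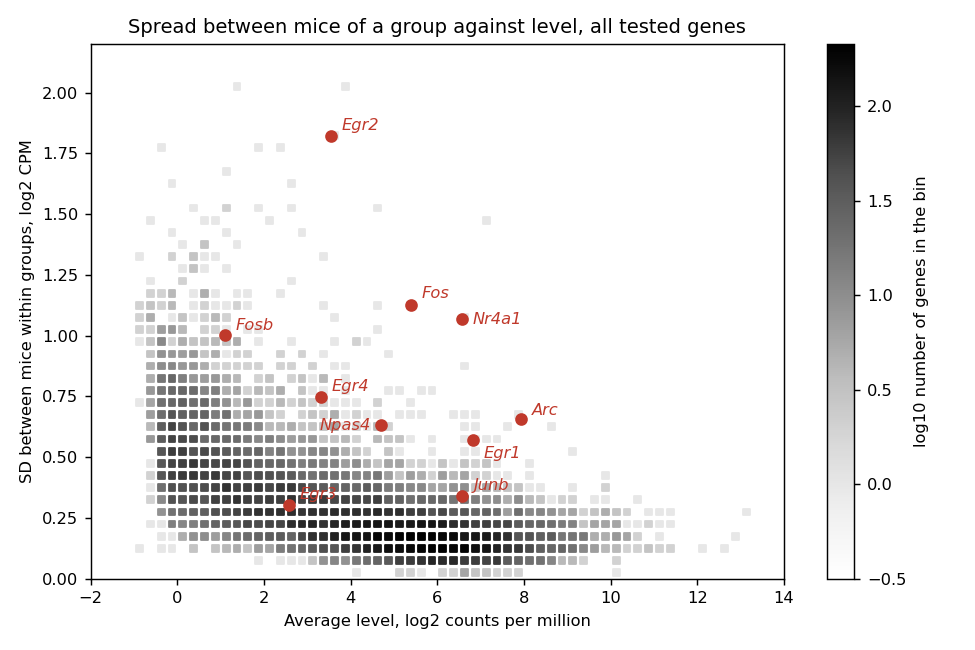
SD of log2 CPM between mice of a group against average log2 CPM for all 17361 tested genes, in grey bins shaded by the log10 number of genes, with the 10 members as red points. Egr2, Fos and Nr4a1 lie far above the bulk of genes of their level, and Egr3 and Junb lie among them.

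The members tended to be high or low in the same mice. Caffeine-treated mouse 1 was the highest of its group for 10 of 10 members and among the 3 highest of the 9 mice for all 10. Caffeine-treated mouse 3 was the lowest of its group for 9 members and the lowest of all mice for 6, and mice 2 and 3 of this group were each among the 3 lowest for 8 members. In WT mice, mouse 1 was the lowest for 9 members and mouse 2 was the highest of all 9 mice for 5. Among Tg4-42 mice, mouse 3 was the highest for 9 members, all but Egr3.

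Over the 9 mice all 45 pairs of members had a positive Pearson correlation of log2 CPM, from 0.21 for Fos with Egr3 to 0.99 for Egr2 with Nr4a1, with a median of 0.67. Arc and Npas4 followed each other with r = 0.98, Arc and Egr1 with 0.94, and Fos and Npas4 with 0.94. Around the group means the median was 0.79. The 7 members other than Junb, Egr3 and Egr4, a division made after their values were seen, had correlations of 0.68 to 0.99 with a median of 0.88, and pairs with Junb, Egr3 or Egr4 had a median of 0.52. These coefficients describe 9 libraries that share 2 sequencing lanes, with groups of 3, and carry no test.

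**Figure D5:**
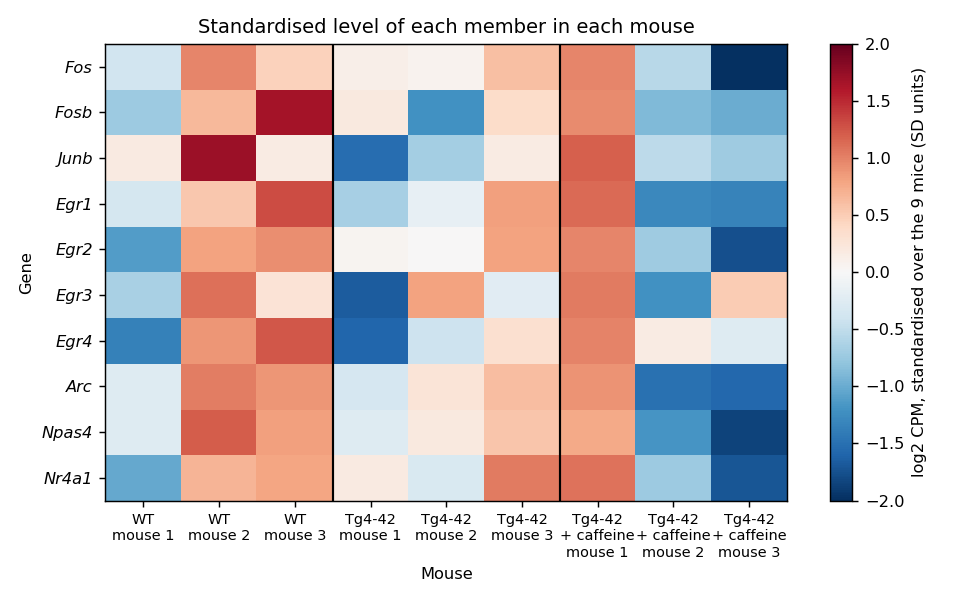
log2 CPM of each member in each mouse, standardised over the 9 mice and shown in SD units from blue (low) to red (high), with vertical lines between groups. Caffeine-treated mouse 1 is red in all 10 rows, and mouse 3 of that group is the lowest of all mice for 6 members.

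Other rapid response genes showed a related pattern. Of 34 such genes 32 were tested, and 12 of them lay above the 90th percentile of SD between mice. Correlation with the members' mean standardised level was above 0.7 for 13 of the 32, where 4.81% of the 17351 other tested genes passed that value. The summed level of the 34 genes was 838, 1213 and 1205 CPM in WT, 967, 839 and 1194 CPM in Tg4-42 and 1203, 804 and 706 CPM in caffeine-treated mice, and its r with the members over the 9 mice was 0.95. None was called in any comparison by edgeR, 4 of the 32 had an unadjusted p under 0.05 after caffeine against untreated Tg4-42 mice, against 17.0% of all genes, and the median log2 fold change there was -0.06. Dusp6, a phosphatase that inactivates ERK, had r = 0.94 and ranged from 59.0 to 119 CPM. The lowest unadjusted p in that comparison were those of Klf6 (-0.56, adjusted p 0.134), Ier3 (-0.78, adjusted p 0.194) and Klf10 (-0.70, adjusted p 0.206), from edgeR.

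The partners of Fos form a list of their own. Jun, the main dimerisation partner of Fos, was at 38.6, 59.1 and 39.1 CPM in WT, 41.3, 57.8 and 36.4 CPM in Tg4-42 and 70.8, 69.6 and 96.6 CPM in caffeine-treated mice, which were above all others. The caffeine group did not overlap untreated Tg4-42 mice for 23.0% and WT mice for 18.8% of all genes. Its r with the members was -0.30. The log2 fold change of Jun against untreated Tg4-42 mice was 0.80 with an adjusted p of 0.0802 from edgeR, that of Jund 0.67 (adjusted p 0.237) and that of Batf3 1.10 (adjusted p 0.273). Of the 7 AP-1 partners and relatives 6 were tested, 5 had higher fitted levels after caffeine than in untreated Tg4-42 mice, 3 had an unadjusted p under 0.05 there, against 17.0% of all genes, and none was called by edgeR in any comparison.

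Late response effectors, the secreted and synaptic proteins whose genes follow the early factors, were called in no comparison. Of 20 genes tested, 6 had higher and 14 lower fitted levels after caffeine against untreated Tg4-42 mice, with a median log2 fold change of -0.21 and an unadjusted p under 0.05 for 6 of the 20, against 17.0% of all genes, and 4 had r above 0.7 with the members. The 3 with the lowest p were Ptgs2 (-0.52, adjusted p 0.0730), Vgf (-1.01, adjusted p 0.104) and Acan (1.06, adjusted p 0.128), from edgeR. Homer1, whose short activity-induced form is itself an early transcript, was between 90.6 and 238 CPM with r = 0.72 and is counted here over all exons. Bdnf, a neurotrophin, was between 128 and 194 CPM with r = 0.42.

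Upstream regulators, which relay calcium, cAMP and ERK signals to these promoters, did not share the wide spread between mice. None of the 26 lay above the 90th percentile of SD, and none had r above 0.7. After caffeine 20 had higher and 6 lower fitted levels than in untreated Tg4-42 mice, with a median log2 fold change of 0.15 against -0.01 over all genes. Of the 26, 8 had an unadjusted p under 0.05 there, against 17.0% of all genes, and none was called by edgeR, against 0.881%. Mapk3 (ERK1) had 0.55 with an adjusted p of 0.0813, Map2k1 (MEK1) 0.48 with 0.135 and Mef2d 0.42 with 0.149. None of the 6 feedback regulators was called by edgeR or had an unadjusted p under 0.05, and Arnt2, Nab2 and Rest had the lowest p, with log2 fold changes of -0.20, 0.22 and -0.29 after caffeine (adjusted p 0.527, 0.637 and 0.756 from edgeR).

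The 10 genes whose pattern over the 9 mice was most like the members' mean standardised level were Kbtbd2 (r = 0.96), Crkl, Zfp365, Pde6b, Txnl4a, Dusp6, Hsph1, Ap3s2, Gnai3 and Ipo5 (r = 0.93). Their levels changed 1.23-fold to 2.01-fold between the highest and the lowest mouse. In all 30 of 17351 genes had r above 0.9 and 27 had r below -0.9, so that values of this size occurred in both directions.

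Markers of cell classes and of handling were measured in the same libraries. The 10 markers of dentate granule cells summed to 767 to 1026 CPM in WT, 613 to 1036 CPM in Tg4-42 and 1183 to 1460 CPM in caffeine-treated mice, with no overlap, and all 10 had higher fitted levels after caffeine. For single genes, the caffeine group did not overlap untreated Tg4-42 mice in 23.0% and WT mice in 18.8% of all tested genes. Plk5 and Stxbp6 were called against untreated Tg4-42 mice, where 0.881% of all genes were. Their log2 fold changes were 1.52 (adjusted p 0.0385) and 0.81 (adjusted p 0.0399) from edgeR. In such nuclei more granule cells and more RNA per granule cell cannot be told apart. The granule sum had r = -0.32 with the members over the 9 mice, and caffeine-treated mice 1 and 3, at opposite ends for the early genes, had sums of 1271 and 1460 CPM.

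CA1 markers summed to 593 to 946 CPM in WT, 648 to 777 CPM in untreated Tg4-42 and 466 to 677 CPM after caffeine. Dcn alone ranged from 8.31 to 232 CPM. After caffeine 6 of the 7 had lower fitted levels than in untreated Tg4-42 mice and 1, Pou3f1 (0.70), a higher one. Wfs1 was the 1 of 7 called, against WT, with -0.77 (adjusted p 0.0408 from edgeR), where 0.415% of all genes were called. Interneuron, oligodendrocyte, astrocyte and microglial markers had lower fitted levels after caffeine than in untreated Tg4-42 mice in 7 of 7, 5 of 5, 4 of 5 and 5 of 5 genes, none called. Subiculum and neocortex markers were lower in 5 of 6 and CA3 markers higher in 6 of 6 genes, none called. In that comparison 0.881% of all genes were called, so lists this short were hardly bound to hold one. The oligodendrocyte sum had r = 0.72 with the members, and it was 332, 262 and 227 CPM in caffeine-treated mice 1, 2 and 3. The sum of 6 heat shock genes, listed here as markers of handled tissue, had r = 0.96 with the members. It ran from 309 to 529 CPM, and was 474, 324 and 309 CPM in caffeine-treated mice 1, 2 and 3. Of the 6 genes 5 passed the filter, and Hsph1 made up the largest part, at 183 to 318 CPM. Among these, Hsph1 had r = 0.94, Dnajb1 0.90 and Hspa1a 0.60, and Hspa1a ranged from 1.62 to 3.60 CPM. Their part in the results on the early genes was not tested.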

How the data were processed

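NeuN-positive nuclei were profiled with SMART-Seq v4 and Nextera XT libraries and 50-base single-end reads, 3 mice per group. The authors aligned reads to mm10 with STAR and deposited raw exon counts per Ensembl gene, made with featureCounts; versions and annotation are not given in the sources used here. Of 48709 genes, 48349 received a symbol from GENCODE M21 (GRCm38). Counts were fitted with edgeR 4.0.16 (R 4.3.3; filterByExpr with a minimum count of 10, TMM, robust quasi-likelihood test), with all 9 libraries in 1 fit and Benjamini-Hochberg adjustment over 17361 genes; the threshold was 0.05. No covariate was used. CPM use TMM-scaled totals, and log2 CPM a prior count of 2. Exact permutation tests used log2(CPM + 0.5). DESeq2 1.42.0 and limma 3.58.1 (voom with quality weights) were alternatives. The fit was tested on simulated data. Libraries held 9342945 to 16376922 counts, and floors of 3 counts cover counting error only. P-values measure the spread between these libraries. No 2 libraries were identical. Exon lengths are those of merged GENCODE exons. Named were all 10 members; of each of 5 pathway lists the genes called (at most 5) and the 3 with the lowest p after caffeine against untreated Tg4-42 mice; and the 10 genes most like the members. Other list genes, such as Bdnf, Homer1, Dcn and Hspa1a, were added after their values were seen. The members and lists were chosen with earlier results of these data known.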

Additional observations from a re-analysis of the deposited data

How the results depend on the processing

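Of 447 alternative log2 fold changes of members, 401 kept their direction and side of the threshold, 40 changed sign and 6 became called; the causes were not tested. Genes called numbered 17 for Tg4-42 against WT, 153 for caffeine against untreated Tg4-42 and 72 for caffeine against WT. In that order, no filter on low counts gave 74, 987 and 860; for the 2 caffeine comparisons DESeq2 gave 747 and 540, a lane covariate 9 and 42, and lane 6 alone 0 and 17; limma-voom gave 618 for caffeine against untreated Tg4-42. Leaving out 1 mouse gave 0 to 341 and 16 to 287 genes for the caffeine comparisons. Members called rose from 0 to 3 without the filter for caffeine against WT (Fos, Arc and Npas4, with adjusted p 0.0247, 0.000183 and 0.00135 from edgeR). That fit called 860 of 30820 genes. The groups overlapped for these 3 members, and exact permutation tests gave p = 0.4, 0.3 and 0.2. Members called ranged over 0 to 1 against untreated Tg4-42 and 0 to 2 against WT when 1 mouse was left out. The calls without caffeine-treated mouse 1 are given above.

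For Tg4-42 against WT, Nr4a1 became -0.11 in lane 6 alone and -0.033 with the replicate block. With 1 mouse left out, the ranges that crossed 0 were -0.50 to 0.20 for Fos, -0.94 to 0.10 for Egr2, -0.33 to 0.0070 for Egr3 and -0.40 to 0.34 for Nr4a1. For caffeine against untreated Tg4-42, lane 6 alone gave 0.37 for Fos, 0.34 for Egr1, 0.83 for Egr2, 0.052 for Arc, 0.024 for Npas4 and 0.49 for Nr4a1, and limma-voom gave -0.21 for Fosb. Leave-one-out ranges were -1.58 to 0.14 for Fos, -0.88 to 0.43 for Fosb, -0.0014 to 0.44 for Junb, -0.76 to 0.11 for Egr1, -2.53 to 0.29 for Egr2, -0.039 to 0.31 for Egr3 and -1.53 to 0.065 for Nr4a1. For caffeine against WT, lane 6 alone gave 0.15 for Fosb, 0.036 for Egr1, 0.33 for Egr2, 0.40 for Egr4 and 0.38 for Nr4a1, and the replicate block gave 0.038 for Egr4. Leave-one-out ranges were -0.17 to 0.14 for Egr3, -0.51 to 0.22 for Egr4 and -1.47 to 0.089 for Nr4a1. The replicate numbers carry no pairing, and the block called no member; the unadjusted p of Junb for Tg4-42 against WT was 0.0757 from edgeR with it. Fosb and Egr2 rest on as few as 10 counts in their lowest libraries, and with 3 mice per group the intervals given above bound what could be seen.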

Other observations

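Several rapid response genes outside the 10 members, singled out here after their values were seen, varied between mice as widely as the members did. Ccn1, a secreted matrix protein, was at 3.61, 27.9 and 22.1 CPM in WT, 17.1, 5.90 and 22.9 CPM in Tg4-42 and 30.3, 3.18 and 0.384 CPM in caffeine-treated mice, an SD of log2 CPM of 2.01, above that of Egr2. Its r with the members' mean was 0.87. Dusp1, a phosphatase of MAP kinases, ranged from 14.7 to 70.2 CPM with r = 0.92, and Trib1 from 3.69 to 20.8 CPM with r = 0.85. Rgs2, on the same list, stayed between 72.0 and 98.6 CPM with r = 0.31.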
